A study of Mus musculus with 216 samples.

Results

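The hypothalamus of old mice, at 27 months, was compared with that of young mice, at 6 months, by RNA sequencing. The members are 24 of the 216 libraries of the series, namely the 12 hypothalamus libraries of the old group and the 12 of the young group. Both groups were male mice of the strain given as C57B6/J-NIA, with no treatment or genetic change named. Hypothalamus was taken at 12 circadian times (18 to 62, every 4 h, hence 2 cycles), and each age has 1 library per time. Each library pooled 2 samples, and no label says which mice gave them, so the p-values below measure the spread between libraries. Another 12 hypothalamus libraries, from aged mice of 18 months and otherwise alike, and 120 libraries from the other 5 tissues of old and young mice serve as comparisons. Levels are given as CPM, a gene's count per M (mega) counts of its library, and changes as log2 with their standard error (SE).

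The hypothalamus holds the neurons that set feeding, body temperature, reproduction, stress responses and sleep, many of them known by the peptide they release. Among them lie astrocytes, which clear transmitter, oligodendrocytes, which wrap axons in myelin, and microglia, the resident macrophages of the brain. Microglia that take up debris are known to switch on a set of genes that includes Cst7, an inhibitor of lysosomal proteases, and Itgax, an integrin subunit. Interferons, which cells release on sensing foreign or misplaced nucleic acid, act through receptors and transcription factors to induce another set.

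Total counts were 23.3 to 29.4 M per young library, 23.8 to 30.2 M per aged library and 1.83 to 21.9 M per old library (median 6.38 M), so every old library was shallower than every young one. Transcripts that define the hypothalamus were present in every library: Avp at 182 CPM or more, Pmch at 235 CPM or more and Nkx2-1 at 17.6 CPM or more. Hcrt, the orexin precursor, was low in the old libraries at 34 (19.5 CPM) and 62 (12.7 CPM), where the other 10 old libraries had 88.7 CPM or more. The old library at 38 was the shallowest and had the highest Avp (1587 CPM) and Oxt (602 CPM) of the old group. Results without the 2 shallowest old times (38 and 46) are given for the overall counts and for the activated microglia and interferon lists. For the other lists they are not given.

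Old hypothalamus differed from young in many genes of immune cells, glia and neurons. By edgeR's quasi-likelihood test with circadian time as a block and Benjamini-Hochberg adjustment, 17884 genes were tested and 7250 (40.5%) changed, of which 3414 (19.1% of those tested) rose and 3836 (21.4%) fell, and 8836 had an unadjusted p under 0.05. The median log2 change over all tested genes was -0.03. Most changes were small: 640 of the called rises and 470 of the called falls exceeded 2-fold, and 94 and 70 exceeded 4-fold. In 190 genes (1.06%) all 12 old libraries lay above all 12 young ones, and in 138 genes (0.772%) below. With both libraries of a time thinned to equal depth the counts were 2442 higher and 3737 lower of 14988 tested. Without the 2 shallowest old times they were 2845 and 3885.

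**Figure D1:**
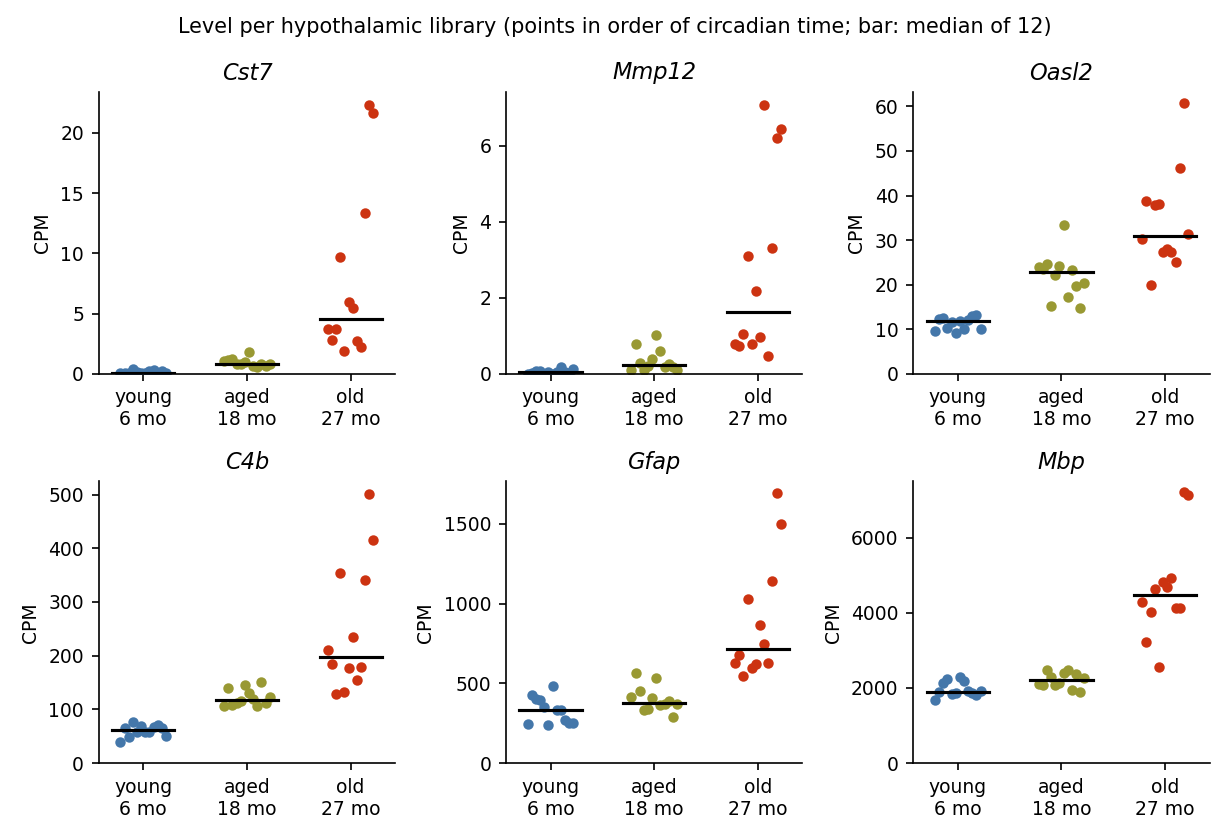
CPM of 6 genes in each of the 36 hypothalamus libraries, 12 per age, with the median of each age as a bar and points in order of circadian time; all vertical axes start at 0. In each of these genes the old libraries lie above the young ones without overlap, as in Cst7 with 1.91 to 22.3 CPM against 0.0757 to 0.390 CPM.

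Genes of activated microglia rose together. Cst7, which encodes cystatin F, was at 0.0757 to 0.390 CPM in young libraries (median 0.113), 0.535 to 1.79 in aged (0.830) and 1.91 to 22.3 in old (4.58). All 12 old libraries exceeded all young ones, with the highest values at 54, 58 and 62. The log2 change was 5.32 ± 0.36 (SE, n = 12 times, edgeR adjusted p = 2.16e-07). The gene lies at chr2:150570415-150578944 on the plus strand of GRCm38, per GENCODE M21.

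Mmp12, the macrophage elastase, was at 0 to 0.178 CPM in young libraries (median 0.0395, with 3 libraries at 0), 0.0993 to 1.02 in aged (0.237) and 0.476 to 7.06 in old (1.62). Old and young libraries did not overlap although the levels were low. Its log2 change was 5.42 ± 0.42 (edgeR adjusted p = 6.74e-07), and it lies at chr9:7344381-7369499 on the plus strand. With young levels this low, Mmp12 and Cst7 passed the filter on low counts mainly through the old libraries. That they were called higher is therefore no test of direction. Itgax rose by 3.59 ± 0.26 on the log2 scale, from a median of 0.550 to 5.46 CPM. Clec7a, a receptor for fungal glucans, rose by 3.27 ± 0.30, from 1.27 to 8.02 CPM. For each of these 4 genes every aged library lay above the young median.

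Of the 24 genes on the activated microglia list all were tested. Of these 20 rose and 0 fell, with a median log2 change of 0.97, where 19.1% of all tested genes rose. For members such as Mmp12, which passed the filter mainly through the old libraries, the count is no test of direction. In 12 of the 20 the groups did not overlap, where 1.06% of all tested genes lay higher in old without overlap. The summed level of the list was 3491 to 4475 CPM in young and 4551 to 13770 CPM in old libraries, with every old library above every young one. Cst7, Mmp12, Itgax and Clec7a reached at most 39.1 CPM each, so the sum mostly follows more abundant members. It was highest in the shallow old library at 38. There Itgax (2.73 CPM) and Clec7a (4.37 CPM) were the lowest of the old group, while Cst7 (6.00 CPM) and Mmp12 (2.18 CPM) were not. Trem2, the lipid receptor of microglia, and Cd52, chosen after their values were seen, rose by 1.73 ± 0.17 and 2.76 ± 0.27. Without the 2 shallowest old times 20 genes rose. Without the 4 times at which a young library held Gm15446 (described below) 17 rose.

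Homeostatic microglia genes also rose, by less. Of 14 tested genes 11 rose (78.6%, against 19.1% of all tested genes) and 0 fell, with a median log2 change of 0.54. In 2 of them old lay above young without overlap, against 1.06% of all tested genes. Aif1, which encodes IBA1, changed by 1.54 ± 0.17, without overlap. Csf1r, the receptor on which microglial survival depends, changed by 0.79 ± 0.09, and Tmem119 by 0.58 ± 0.11. P2ry12, a nucleotide receptor, did not pass the test: it was at 28.8 to 56.8 CPM in young (median 35.7) and 10.4 to 57.4 CPM in old libraries (37.3). In tissue RNA of this kind more cells of a type and more RNA per cell cannot be told apart. Without the 4 Gm15446 times 6 of the 14 rose.

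Genes of the lysosome, the compartment in which microglia digest what they take up, followed. Of 11 tested, 10 rose (90.9%, against 19.1% of all tested genes) and 0 fell (median log2 change 0.74). In 6 of them the groups did not overlap, against 1.06% of all tested genes. Lyz2, lysozyme M of myeloid cells, rose from a median of 18.7 to 120 CPM (log2 change 2.61 ± 0.30). Ctss, a cathepsin of antigen-presenting cells, rose from 81.2 to 244 CPM (1.59 ± 0.13, edgeR adjusted p = 1.82e-06). Cd68 rose by 1.81 ± 0.21 and the progranulin gene Grn by 0.74 ± 0.09.

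Markers of other blood-borne or border cells moved in part. Of the border macrophage and monocyte list 9 of 10 genes were tested, and 3 rose (33.3%, against 19.1% of all tested genes): Ms4a7 by 2.24 ± 0.32, Ly6c2 by 1.63 ± 0.34 and Cbr2 by 1.11 ± 0.36. The border macrophage markers Mrc1, Cd163, Lyve1 and Pf4 were not called, and the list median was 0.20. Of 16 T and NK cell genes 6 had enough counts to be tested and 1 rose (16.7%, near 19.1%), the chemokine Ccl5, by 2.56 ± 0.32. Cd3e was at 0.361 CPM or less in young and at 0 to 0.811 CPM in old libraries. Of 10 B and plasma cell genes 6 were tested and 4 rose, with Igkc going from a median of 1.08 to 13.1 CPM (2.88 ± 0.51). Haemoglobin genes, a sign of blood in the tissue, rose too, 3 of the 5 genes tested: Hba-a1 by 1.35 ± 0.29 and Hbb-bs by 1.41 ± 0.27. The summed blood list was 226 to 711 CPM in young and 298 to 2781 CPM in old libraries, highest at 38. The same old library held the highest sum of the meninges and fibroblasts list (5544 CPM, against 498 to 1660 CPM in young libraries) and of the MHC class II presentation list (249.9 CPM). Of the 10 meninges and fibroblasts genes 0 passed the test by edgeR in either direction, 2 were lower at an unadjusted p under 0.05, and 1 was lower by DESeq2. Without the libraries at 38, 6 MHC class II presentation, 4 B and plasma cell, 3 border macrophage and monocyte and 3 blood genes were called higher, the same counts as with them. The part of blood, of meninges or of these cells in the rises above was not tested.

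Interferon-response genes rose almost without exception. All 26 genes of the list were tested. Of these 24 rose (92.3%, against 19.1% of all tested genes) and 0 fell, with a median log2 change of 1.27. In 11 of them the groups did not overlap, against 1.06% of all tested genes. The summed level was 174 to 243 CPM in young, 218 to 484 CPM in aged and 256 to 812 CPM in old libraries, without overlap between young and old. Without the 2 shallowest old times 23 rose, and without the 4 Gm15446 times 20 rose.

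Oasl2, an OAS-like protein of antiviral defence, was at 9.08 to 13.1 CPM in young libraries (median 11.8) and 19.9 to 60.6 CPM in old (30.8), a log2 change of 1.60 ± 0.11 (edgeR adjusted p = 3.96e-07). Usp18, which removes ISG15 from proteins and dampens interferon signalling, rose by 2.10 ± 0.19. Irf7, a factor that amplifies the interferon response, rose from a median of 3.72 to 11.2 CPM (1.84 ± 0.18). Old and young libraries did not overlap in any of these 3 genes. Rtp4 changed by 1.57 ± 0.14 and Xaf1 by 1.24 ± 0.11. The ubiquitin-like Isg15 changed by 1.86 ± 0.21 with overlapping groups, although the old library was higher at all 12 times. Of the 26 genes, Ifit1 had one of the larger adjusted p-values (0.0339 by edgeR, log2 change 0.72 ± 0.26) and was higher in old at 8 of 12 times.

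Promoters of these genes were searched for the interferon-stimulated response element, here the letters GAAANNGAAA, in the 250 bases before the gene start, on both strands and with overlapping matches allowed. RefSeq promoters of build GRCm38.p6 were at hand for 18 of the 26 genes, and 11 of the 18 (61.1%) held a match. Over all 27025 genes with such a promoter 936 (3.46%) held one. Among the activated microglia genes 1 of 19 did, and among the ribosomal protein genes 5 of 29. Below are the 150 bases before the start of the 4 genes with a match on the gene's strand in that window and the smallest p, written 5′ to 3′ on the gene's strand with the match in capitals, to show how near the start it lies. They are Oas1a (chr5:120907526-120907675, minus strand), Bst2 (chr8:71537473-71537622, minus), Isg15 (chr4:156200819-156200968, minus) and Igtp (chr11:58199406-58199555, plus).
Oas1a: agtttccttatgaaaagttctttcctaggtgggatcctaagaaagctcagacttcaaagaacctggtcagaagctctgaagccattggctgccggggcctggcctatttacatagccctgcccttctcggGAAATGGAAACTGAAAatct
Bst2: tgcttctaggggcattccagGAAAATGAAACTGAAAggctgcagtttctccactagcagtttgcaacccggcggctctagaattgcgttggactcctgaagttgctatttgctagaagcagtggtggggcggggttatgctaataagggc
Isg15: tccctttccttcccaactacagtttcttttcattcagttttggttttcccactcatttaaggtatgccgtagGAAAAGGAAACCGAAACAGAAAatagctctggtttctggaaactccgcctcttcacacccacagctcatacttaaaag
Igtp: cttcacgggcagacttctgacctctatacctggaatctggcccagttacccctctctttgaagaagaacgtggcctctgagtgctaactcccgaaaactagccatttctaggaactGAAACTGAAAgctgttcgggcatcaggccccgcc

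The 4 genes rose by 2.10 ± 0.19 (Oas1a, a sensor of double-stranded RNA), 2.05 ± 0.22 (Bst2, tetherin), 1.86 ± 0.21 (Isg15) and 1.06 ± 0.14 (Igtp, an interferon-inducible GTPase) on the log2 scale. In Isg15 the run in capitals holds 3 overlapping matches, in Oas1a and Bst2 it holds 2, and in Igtp it holds 1. Oasl2, Xaf1 and Irf7 have a promoter entry without these letters in the window. A match is a description of letters only.

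Antigen presentation rose with this block. Of the 11 tested genes of MHC class I presentation 10 rose (90.9%, against 19.1% of all tested genes) and 0 fell (median log2 change 1.21). In 6 of them the groups did not overlap, against 1.06% of all tested genes. B2m, the invariant light chain, rose from a median of 101.4 to 239 CPM (1.32 ± 0.14). H2-K1, a classical heavy chain, rose from 47.6 to 122 CPM (1.41 ± 0.15), and Psmb8, a subunit of the immunoproteasome, by 1.66 ± 0.17. Of 7 MHC class II genes 6 were tested and all 6 rose, with a median log2 change of 1.19 but overlapping groups. The invariant chain Cd74 changed by 1.24 ± 0.32 (edgeR adjusted p = 0.00592) and was higher in old at 9 of 12 times.

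Complement genes rose as a group. Of 10 tested genes 9 rose (90%, against 19.1% of all tested genes) and 0 fell (median log2 change 1.45). In 4 of them the groups did not overlap, against 1.06% of all tested genes. C4b, the component cleaved in the classical pathway, was at 38.8 to 76.5 CPM in young libraries (median 61.96), 106 to 151 in aged (118) and 129 to 502 in old (198). Its log2 change was 1.98 ± 0.16 (edgeR adjusted p = 1.46e-06), and the aged libraries too lay above all young ones. The C1q chains C1qa and C1qb rose by 1.35 ± 0.19 and 1.51 ± 0.17. C3 changed by 1.95 ± 0.30 with overlap, reaching 148.5 CPM in 1 old library.

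Of 17 genes for cytokines and senescence 10 had enough counts to be tested and 8 rose (80%, against 19.1% of all tested genes). Cxcl13, a B cell attractant, went from a median of 0.126 to 2.36 CPM (log2 change 4.45 ± 0.41) and Ccl3 from 0.194 to 1.64 CPM (3.29 ± 0.23), both without overlap. With young levels this low, both passed the filter on low counts mainly through the old libraries. For such genes a call of higher is no test of direction. Cxcl10, an interferon-induced chemokine, rose by 2.61 ± 0.36. Cdkn1a, which encodes the cell-cycle inhibitor p21, rose by 0.34 ± 0.12 (edgeR adjusted p = 0.0350), and by 0.12 with an adjusted p of 0.443 once length and GC trends were removed. Cdkn2a, Il6 and Tnf were too low to test, at medians of 0.336, 0.0498 and 0.150 CPM in old libraries. The genes with the smallest p among the rises included Lag3, an inhibitory receptor that binds MHC class II, which rose from 4.16 to 17.8 CPM (2.15 ± 0.11, edgeR adjusted p = 1.07e-08). They also included Ly9, a SLAM family receptor (2.74 ± 0.16, edgeR adjusted p = 3.31e-08).

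**Figure D2:**
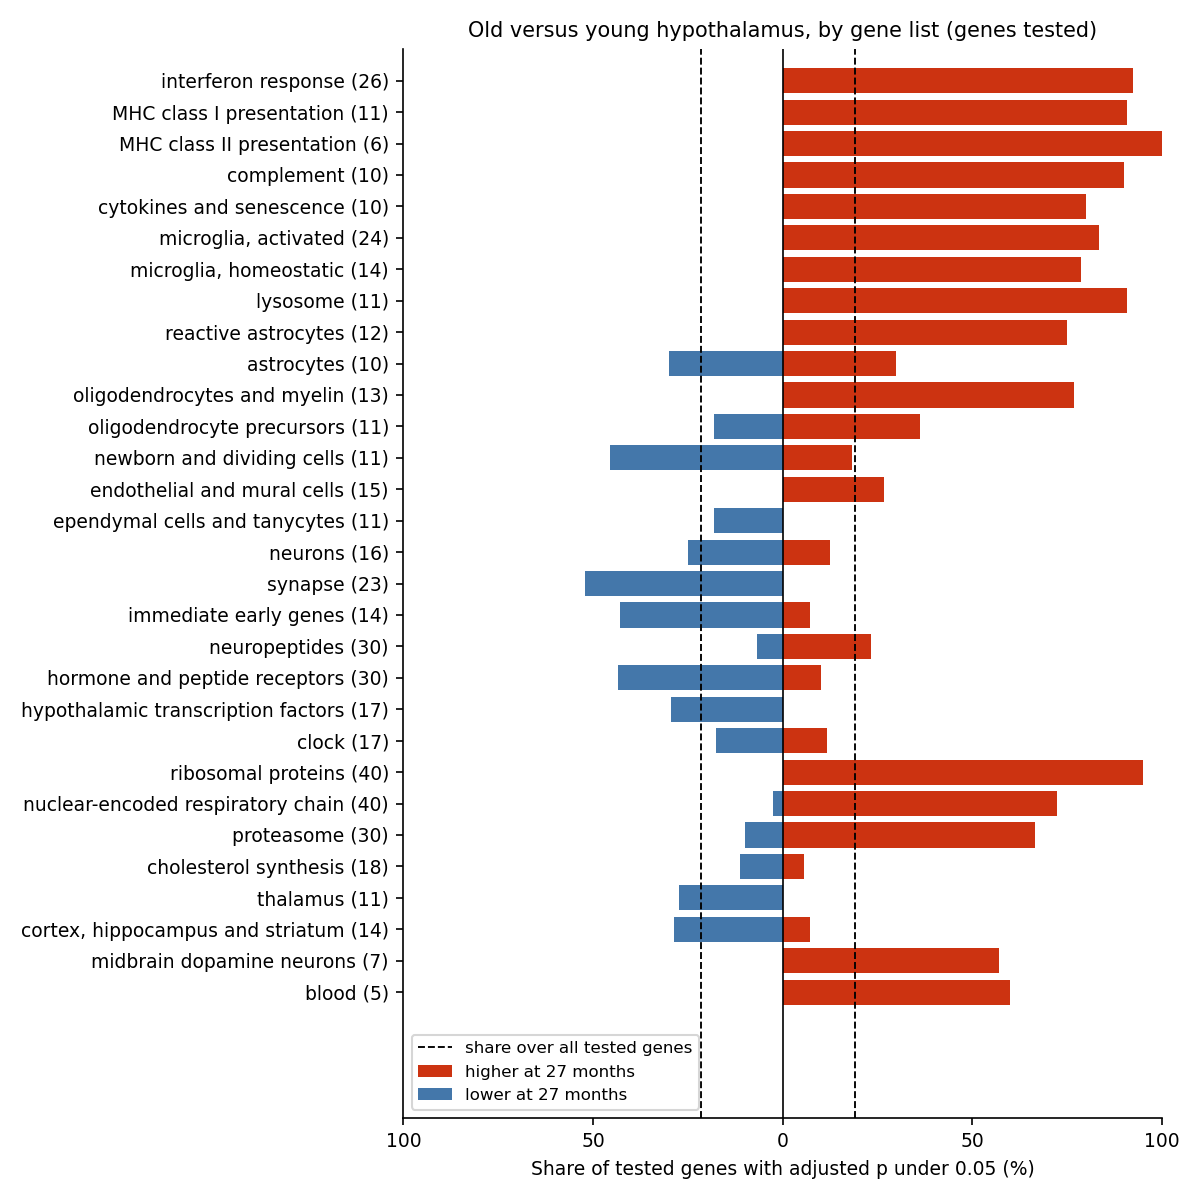
Share of the tested genes of each list drawn with an edgeR adjusted p under 0.05, higher at 27 months to the right and lower to the left, with the number tested in brackets and the shares over all tested genes (19.1% and 21.4%) as dashed lines. The interferon, MHC, complement, lysosomal, activated microglia, myelin and ribosomal protein lists lie far to the right, as with 24 of 26 interferon-response genes. The synapse list lies to the left, with 12 of 23 lower. Some lists are not drawn, among them T and NK cells (1 of 6 higher) and border macrophages and monocytes (3 of 9 higher).

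Genes of reactive astrocytes rose, while general astrocyte markers went both ways. Gfap, the intermediate filament that marks reactive astrocytes, was at 240 to 481 CPM in young libraries (median 334), 289 to 567 in aged (379) and 546 to 1693 in old (712). Old and young did not overlap, and the log2 change was 1.39 ± 0.19 (edgeR adjusted p = 8.04e-05). Of 12 reactive astrocyte genes 9 rose and 0 fell (median log2 change 1.04). Serpina3n, a secreted protease inhibitor, rose by 1.12 ± 0.20 without overlap and Vim by 1.34 ± 0.30 with overlap. Of 10 general astrocyte genes 3 rose and 3 fell (30% each, against 19.1% and 21.4% of all tested genes). Those that rose were Aldh1l1 (0.25 ± 0.07), Aldoc (0.56 ± 0.07) and S100b (0.97 ± 0.15). The 3 that fell were the glutamate transporter Slc1a2 (-0.62 ± 0.11), the gap junction gene Gja1 (-0.35 ± 0.09) and Sox9 (-0.67 ± 0.11). Slc1a2 changed sign once trends with transcript length and GC content were removed.

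Myelin genes rose. Mbp, myelin basic protein, was at 1685 to 2283 CPM in young libraries (median 1905) and 2565 to 7224 CPM in old (4461), without overlap, and the log2 change was 1.24 ± 0.12 (edgeR adjusted p = 3.94e-06). Of 13 tested oligodendrocyte genes 10 rose and 0 fell (median log2 change 0.68). Mag, Mog and Mal rose by 0.89 ± 0.10, 0.87 ± 0.10 and 0.78 ± 0.10. Of 11 precursor genes 4 rose (36.4%, against 19.1% of all tested genes), among them Bcas1 of newly forming oligodendrocytes (0.99 ± 0.11). Another 2 fell (18.2%, near the 21.4% of all tested genes), Pdgfra (-0.28 ± 0.09) and Gpr17 (-0.29 ± 0.09).

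Genes of newborn and dividing cells went the other way in part. Of 11 tested, 5 fell (45.5%, against 21.4% of all tested genes) and 2 rose (18.2%, against 19.1%), with a median log2 change of -0.27. Sox11, a factor of immature neurons, was at 33.6 to 44.1 CPM in young and 12.2 to 26.1 CPM in old libraries, a log2 change of -1.21 ± 0.11 without overlap. Its relative Sox4 changed by -1.13 ± 0.11, also without overlap. Dcx, doublecortin, changed by -0.81 ± 0.16. With length and GC trends removed 2 of the 11 fell and the median was -0.06. Of 15 endothelial and mural genes 4 rose (26.7%, near the 19.1% of all tested genes). Among them were the tight junction gene Cldn5 (0.61 ± 0.15) and Ly6c1 (1.07 ± 0.13).

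Many synaptic genes fell, while general neuronal genes went both ways. Of 16 neuronal genes 2 rose (12.5%, against 19.1% of all tested genes) and 4 fell (25%, near 21.4%), with a median log2 change of -0.04. Among those that fell were the glutamate transporter Slc17a6 (-0.41 ± 0.10) and Map2 (-1.06 ± 0.18). Of 23 synapse genes 0 rose and 12 fell (median log2 change -0.36), where 21.4% of all tested genes fell. Grin2a, an NMDA receptor subunit, was at 31.2 to 48.6 CPM in young and 8.18 to 28.1 CPM in old libraries, without overlap (-1.04 ± 0.16). The AMPA receptor subunit Gria2 changed by -0.93 ± 0.15. After removal of length and GC trends 2 synapse genes rose and 6 fell, the list median was -0.02, and Gria2 changed sign.

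Most neuropeptide genes did not pass the test. Of 31 neuropeptide genes 30 were tested, and 7 rose (23.3%, near the 19.1% of all tested genes) and 2 fell (6.67%, against 21.4%), with a median log2 change of 0.22. Agrp, which drives feeding, was at 2.28 to 5.30 CPM in young libraries (median 3.64) and 5.58 to 36.01 CPM in old (7.33), without overlap (1.37 ± 0.26, edgeR adjusted p = 9.03e-04). Npy, released by the same arcuate neurons, changed by 1.01 ± 0.21 and was higher in old at 10 of 12 times. Tac2, the neurokinin B precursor, changed by 0.50 ± 0.12. The 2 that fell were Npvf, the precursor of the RFamide peptides that restrain gonadotropin release, from a median of 8.59 to 3.55 CPM (-1.06 ± 0.19), and Prok2, an output signal of the suprachiasmatic clock (-0.94 ± 0.28). Avp, Oxt, Pmch and Hcrt did not pass the test. With length and GC trends removed 5 rose and 10 fell, and Npy no longer passed (0.39, edgeR adjusted p = 0.0891).

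Several receptors for hormones and peptides fell. Of 30 tested, 3 rose (10%, against 19.1% of all tested genes) and 13 fell (43.3%, against 21.4%), with a median log2 change of -0.25. Igf1r changed by -0.73 ± 0.11, the prolactin receptor Prlr by -1.06 ± 0.18 and the growth hormone receptor Ghr by -0.61 ± 0.11. The 3 that rose were the orexin receptor Hcrtr1 (0.56 ± 0.11), the melanocortin receptor Mc3r (0.44 ± 0.15) and the thyroid hormone receptor Thra (0.32 ± 0.07). After the same removal 5 rose and 6 fell, and Prlr no longer passed (edgeR adjusted p = 0.294).

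Of 17 hypothalamic transcription factors 0 rose and 5 fell (median log2 change -0.15). The share that fell, 29.4%, was near the 21.4% of all tested genes. Sim1, needed for the paraventricular nucleus, had a median of 18.8 CPM in young and 7.85 CPM in old libraries, and was lower in old at 11 of 12 times (-1.08 ± 0.16). Isl1, a factor of arcuate neurons, changed by -0.43 ± 0.10 and Six3 by -0.34 ± 0.11. Nkx2-1 and Otp did not pass the test. The count was 6 lower after the same removal.

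Markers of midbrain dopamine neurons, which lie next to the hypothalamus, rose in part. Of 7 genes of midbrain dopamine neurons 4 rose (57.1%, against 19.1% of all tested genes), with a median log2 change of 0.79. These were the dopamine transporter Slc6a3 (1.64 ± 0.52, edgeR adjusted p = 0.0201), Th (0.90 ± 0.15), Ddc (0.59 ± 0.08) and En1 (1.58 ± 0.56). Slc6a3 was at 4.54 to 66.8 CPM in young and 2.73 to 208 CPM in old libraries, with 7 old libraries above every young one and 3 at 5.27 CPM or less. Of 11 thalamus genes 3 fell (27.3%), and of 14 genes of cortex, hippocampus and striatum 4 fell (28.6%) and 1 rose, shares near the 21.4% of all tested genes that fell. With the thalamus, forebrain and midbrain lists as 3 covariates 150 genes rose and 86 fell, of which 8 rises lay on the activated microglia list, 12 on the interferon list and 1 on the ribosomal protein list, and 0 falls on the synapse list (edgeR, against 6 lower at an unadjusted p under 0.05). The part of dissection in the changes of neuronal genes was not tested.

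Genes for ribosomal proteins, which are short and abundant, rose together. Of 40 tested, 38 rose (95%, against 19.1% of all tested genes) and 0 fell (median log2 change 0.65). In 3 of them the groups did not overlap, against 1.06% of all tested genes. Rpsa was at 363 to 531 CPM in young and 531 to 2326 CPM in old libraries (1.06 ± 0.16). Of 40 nuclear-encoded genes of the respiratory chain 29 rose and 1 fell (median log2 change 0.39), with Atp5b of the ATP synthase at 0.54 ± 0.08. Of 30 proteasome genes 20 rose and 3 fell (median 0.31). With length and GC trends removed the ribosomal count was 30 higher and 1 lower, the respiratory count 18 and 5, and the proteasome count 11 and 4.

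Change with age varied with transcript length. For 17754 of the 17884 tested genes a longest transcript was found in GENCODE M21. These were split into 5 groups of equal size. In the group with the shortest transcripts (55 to 1644 bases) 1281 genes rose and 200 fell, with a median log2 change of 0.24. In the group with the longest (5001 bases and more) 145 rose and 1797 fell, with a median of -0.32. Split the same way by GC content, the lowest group had 274 higher and 1782 lower and the highest group 857 and 156. Old libraries were also the shallow ones, and RNA quality was not measured in these files, so its part was not tested. With the trend of each library over length and GC removed through offsets, chosen after the data were seen, 3444 genes rose and 2952 fell. On that scale the activated microglia list had 20 higher, the interferon list 25, the complement list 8, the reactive astrocyte list 9 and the myelin list 13, each with 0 lower.

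**Figure D3:**
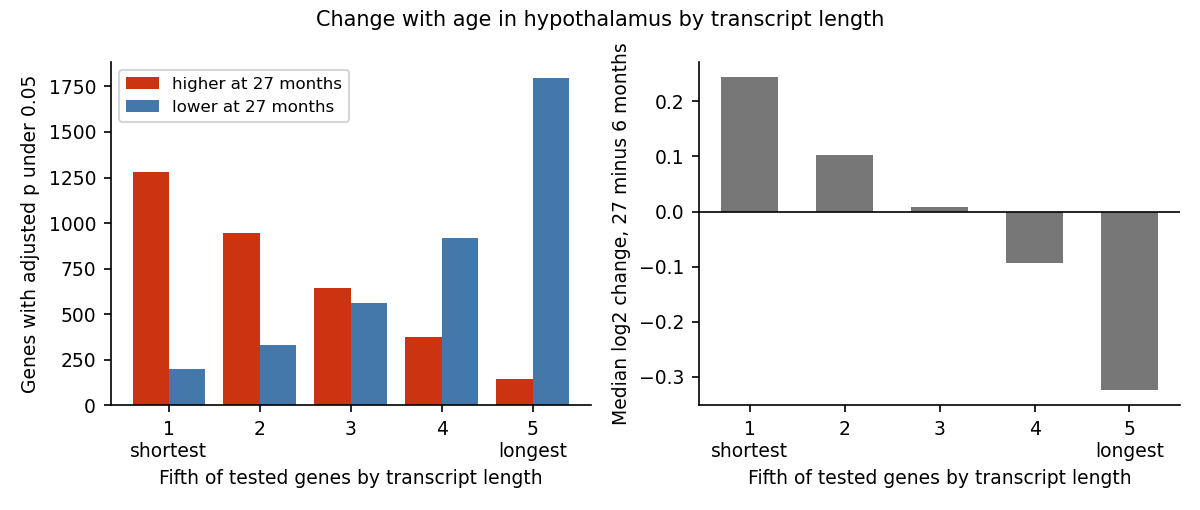
Number of genes with an edgeR adjusted p under 0.05 in each direction (left) and median log2 change from 6 to 27 months (right) in 5 equal groups of the tested genes by length of the longest transcript. From the shortest to the longest group the number of genes higher goes from 1281 to 145 and the number lower from 200 to 1797.

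**Figure D4:**
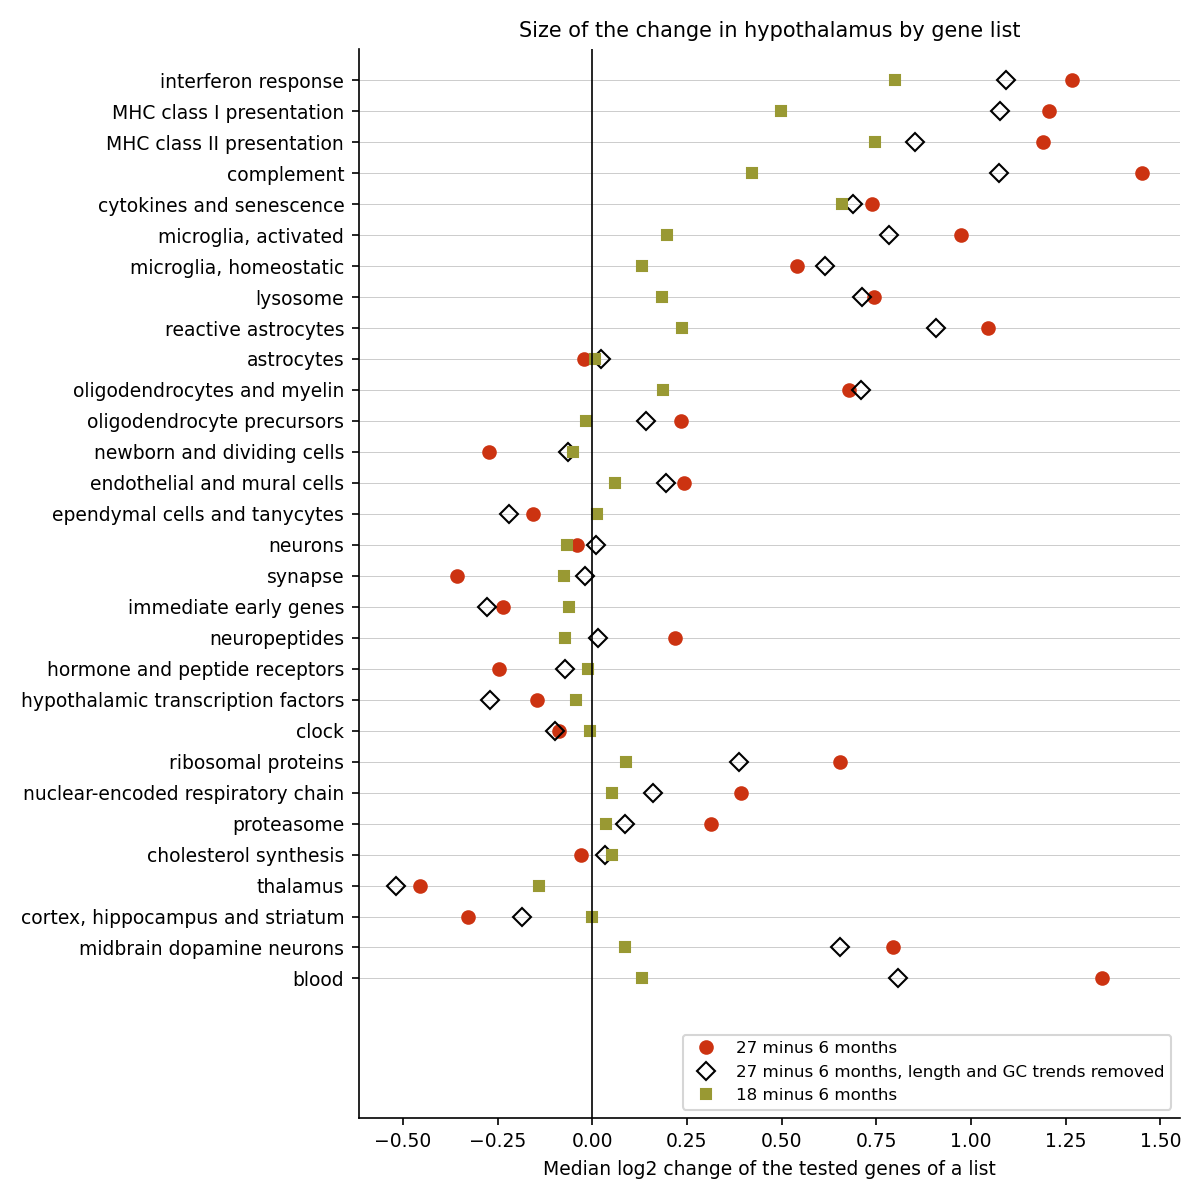
Median log2 change of the tested genes of each list drawn for old minus young (circles), the same with length and GC trends removed (open diamonds) and aged minus young (squares). The interferon list stands at 1.27, 1.09 and 0.80 and the synapse list at -0.36, -0.02 and -0.07.

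The aged libraries were set beside both other ages in a fit of all 36 hypothalamus libraries. These comparisons share libraries with the one above, so their values stand side by side only. The spread in this fit came from all 36 libraries, the shallow old ones included, and aged and young were not fitted alone. Old libraries held 1.83 to 21.9 M counts, against 23.8 to 30.2 M in aged. The part of depth in the counts before and after 18 months was not tested. From 6 to 18 months 198 of 18808 tested genes (1.05%) were called by edgeR, 156 higher (0.829%) and 42 lower (0.223%). The count was 130 without the libraries at 18 and 117 without those at 42. From 18 to 27 months 8051 (42.8%) were called, of which 3546 (18.9% of those tested) rose and 4505 (24%) fell. Of the 26 interferon genes 16 rose by 18 months (median 0.80) and 15 rose from 18 to 27 months (median 0.54). Of the 24 activated microglia genes 5 rose by 18 months (median 0.20) and 20 from 18 to 27 months (median 0.83). Of the ribosomal protein genes 0 rose by 18 months and 38 afterwards. Cst7 rose by 2.56 by 18 months (edgeR adjusted p = 8.25e-04) and by another 2.77 afterwards. Oasl2 rose by 0.95 and C4b by 1.03 by 18 months. The reactive astrocyte, myelin and synapse lists had 0 genes called at 18 months, and Gfap did not pass (log2 difference 0.28, edgeR adjusted p = 0.959).

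Some genes separated young from both other ages. Wdfy1, an adaptor of Toll-like receptor signalling, was at 87.1 to 111 CPM in young, 20.2 to 62.96 in aged and 16.8 to 29.2 in old libraries (-2.11 ± 0.09, edgeR adjusted p = 4.13e-10). Gabra2, a GABA-A receptor subunit, went from a median of 213 to 88.4 and 43.1 CPM (-2.28 ± 0.14). Nnt, the mitochondrial transhydrogenase, went from 43.4 to 24.7 and 21.7 CPM (-0.93 ± 0.07). Nnt and Gabra2 are known to carry different alleles in different C57BL/6 substrains. Of 8 genes listed as differing between substrains, Nnt and Wdfy1 among them, 6 were tested, and 4 rose and 2 fell from 6 to 27 months. From 6 to 18 months 7 were tested, and 4 rose and 2 fell. The predicted gene Gm15446 was at 0.142 to 0.627 CPM in 8 young libraries and at 1.55 to 6.36 CPM in the young libraries at 46, 50, 58 and 62, against 20.4 to 28.5 CPM in aged and 6.97 to 29.8 CPM in old libraries. The aged libraries at 46, 50 and 58 held more Wdfy1 (49.4 to 62.96 CPM) than the other aged libraries. Whether the libraries at intermediate levels mix RNA of mice that differ in these genes was not tested, and their aged and young values are given as labelled. Age and the origin of the mice cannot be told apart here. Without the 4 times at which young libraries held Gm15446, 1510 genes rose and 2163 fell. In those 8 remaining times 20 ribosomal protein, 9 respiratory chain, 3 proteasome and 6 reactive astrocyte genes rose, and 7 synapse and 5 receptor genes fell. In the first cycle alone, with 6 libraries per age, 10 interferon, 8 activated microglia and 0 ribosomal protein genes rose by edgeR's adjusted p, and 0 synapse genes fell. At an unadjusted p under 0.05 there, 20 ribosomal protein genes were higher and 7 synapse genes lower, and the list medians were 0.58 and -0.22. In the second cycle alone 21 interferon, 19 activated microglia and 40 ribosomal protein genes rose, and 15 synapse genes fell. Whether the cycles differed was not tested for these lists.

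**Figure D5:**
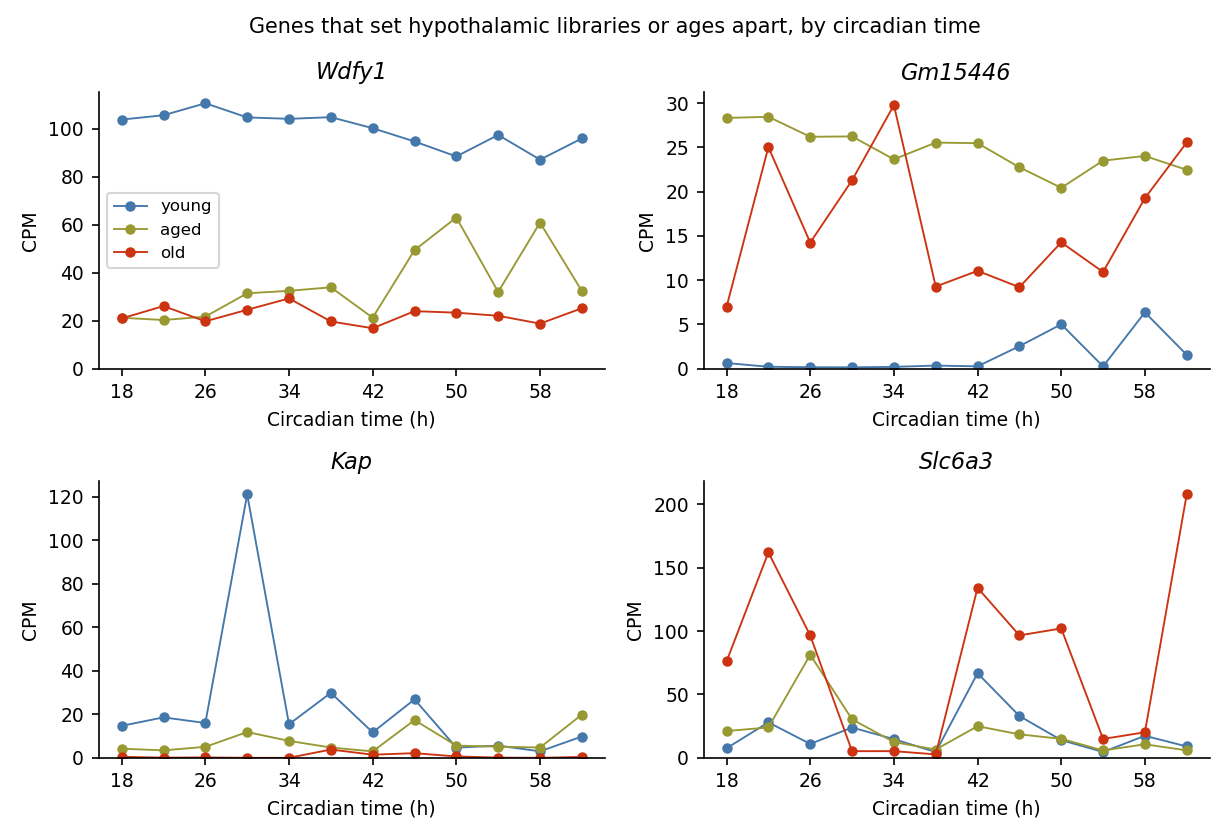
CPM of Wdfy1, Gm15446, Kap and Slc6a3 against circadian time in hours for young, aged and old hypothalamus, 1 library per age and time. Wdfy1 is at 87.1 CPM or more in young and 29.2 or less in old, Gm15446 climbs in the young libraries at 46, 50, 58 and 62, and Kap peaks at 121 CPM in the young library at 30.

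Among the deepest falls were genes known from another organ. Acsm2 (-5.83 ± 0.44), Kap (-5.36 ± 0.52), Umod (-5.27 ± 0.48), Slc34a1 (-5.14 ± 0.45) and Miox (-4.67 ± 0.51), which are expressed in kidney tubules, were 5 of the 8 largest falls. Their level in young hypothalamus was small beside that in young kidney, where Umod averaged 2478 ± 210 CPM (SD, n = 12), with 0.714 to 44.5 CPM in young hypothalamus. Of the 8 kidney genes listed, 6 were tested and all 6 fell. With old levels this low, such genes passed the filter on low counts mainly through the young libraries. The count is therefore no test of direction. The summed kidney list was 9.38 to 330 CPM in young (median 36.9, highest at 30), 7.24 to 48.4 in aged and 0.811 to 8.18 in old libraries. The mean level of the 8 genes in young hypothalamus was 0.219 to 1.16% of that in young kidney, and 0.122 to 0.713% without the young library at 30. The origin of these transcripts was not tested.

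Some changes were larger in hypothalamus than over the other tissues, by direct test. In a fit of the 24 young and old libraries of each of the 6 tissues, the change from young to old in hypothalamus was set against the mean of that in the other 5 tissues. Of 21552 genes tested 6084 (28.2%) differed by edgeR, with 1994 (9.25% of those tested) higher in hypothalamus and 4090 (19%) lower, with a median difference of -0.14; with median-of-ratios factors the counts were 2898 and 3051. Cst7 rose by 3.57 more on the log2 scale than in the other tissues (edgeR adjusted p = 3.62e-08) and Mmp12 by 4.38 more (5.78e-10). Itgax, Clec7a and Ccl3 rose by 2.93, 2.68 and 2.79 more. Those 3 were named for large rises in these same hypothalamus libraries, and Cst7 and Mmp12 also had large rises there. A positive difference from the other tissues therefore follows in part from that choice.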

How the data were processed

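RNA was sequenced from the hypothalamus and 5 other tissues of young, aged and old male mice, and the members are the 24 young and old hypothalamus libraries. RNA was extracted with Trizol and poly(A) libraries prepared with a kit from Illumina, per the labels' protocols. The submitters' processing notes name HISAT2, HTSeq, GRCm38 and mm10, without versions or roles. Whether counting used strand is not given in the sources used here, so genes that overlap, run antisense to one another or have close copies are uncertain. The authors deposited 1 table of raw counts, as whole numbers, for 55376 gene names, of which 11744 had no count and 2 were repeated. A second deposited table holds CPM made by the authors, equal to count over library total within 4.98e-06, so counts were tested and CPM describes levels. Every line names a gene.

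Groups came from the labels. The 630 pairs of hypothalamus libraries were compared by chi-square, with a lowest value of 4.14 per degree of freedom, so each library counted as 1 sample. The main fit used edgeR 4.0.16 (limma 3.58.1, R 4.3.3) on the 24 libraries: filterByExpr by age with a minimum count of 10, TMM factors, estimateDisp, robust glmQLFit and a two-sided glmQLFTest with circadian time as block and Benjamini-Hochberg adjustment (threshold 0.05). Each SE was obtained as log2 change over root F. Aged libraries entered a fit of 36 libraries, and the other tissues a fit of all young and old libraries. The block follows the shared circadian time in the labels; the deviations of the libraries sharing a time correlated at -0.26 to 0.09 (median 0.05, 0 of 12 above 0.1). On simulated counts for 17747 genes of the old and young comparison, 85 of 100 genes changed by log2 1 and 98 of 100 changed by log2 2 were recovered, with 16 false among 199 calls. Apart from the changed genes, all simulated libraries shared 1 profile, with no effect of circadian time, transcript length or GC content. Error rates where many genes change, or where change varies with length, were not tested. Alternatives were DESeq2 1.42.0, other factors, filters and covariates, no block, single cycles, equal depth, a minimum change of 1.5-fold and omission of each time.

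The 24 libraries and the 44 gene lists were chosen with earlier results of these data known. Named are Cst7 and Mmp12, the 8 largest rises and 8 largest falls among called genes whose mean CPM reached 1 and whose sign was shared by all 12 times, the 5 smallest p each way, the first 4 genes and the 4 of smallest p of each list, members of a list where 5 or fewer go one way, and, for the difference between tissues, the 5 smallest p each way. Oas1a, Bst2, Igtp, Trem2, Cd52 and genes given only by their level were added after their values were seen. Some genes that the rule names are not reported here. Transcript lengths, GC content and positions are from GENCODE M21 and promoters from RefSeq (GRCm38.p6).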

Additional observations from a re-analysis of the deposited data

Results flagged for a closer look

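For 20 of 23 named genes the change from young to old hypothalamus differed from the mean change over the other 5 tissues, by an edgeR interaction test with Benjamini-Hochberg adjustment over 21552 genes. Over all tested genes 28.2% differed. Some of the 23 were named for their small p in this same test, others for large changes in hypothalamus. The count therefore follows from how they were chosen. Values below are the log2 change in hypothalamus less that mean.

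Microglial genes rose by more in hypothalamus: Mmp12 by 4.38, Cst7 by 3.57, Itgax by 2.93, Ccl3 by 2.79 and Clec7a by 2.68. Cxcl13, the B cell attractant, rose by 1.89 more. The iron store gene Fth1 (ferritin heavy chain) rose by 1.10 more (adjusted p = 6.23e-14), and Pdlim2 by 1.45 more. The predicted gene Gm25911 differed by 2.98.

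Kidney tubule genes stood out the other way, with differences of -7.06 for Acsm2, -6.98 for Umod, -6.59 for Miox and -6.02 for Slc34a1. Cyp4b1, a cytochrome P450 abundant in lung and kidney, differed by -3.40 (adjusted p = 3.35e-17). For these genes the mean over the other tissues includes organs that express them highly.

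Some long transcripts fell by more in hypothalamus: 9330162G02Rik by -2.74, Akap9 by -2.06, Bod1l by -1.96 and Golgb1 by -1.65. Their longest annotated transcripts are 30942, 13123, 10540 and 11001 bases. Gm28438 fell in hypothalamus and differed by -1.04. Gm15446 rose in hypothalamus, and its difference of -2.19 means that it rose by less than the mean over the other tissues. Both separated young from old hypothalamus without overlap, Gm28438 with old lower and Gm15446 with old higher.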

How the results depend on the processing

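The count of genes higher and lower (3414 and 3836) kept within 1.5 times with other size factors, no filter on low counts, DESeq2, a 24 h cosine, equal depth, the second cycle only, all 36 hypothalamus libraries, without the 2 shallowest old times and with length and GC trends removed (3444 and 2952). Without the replicate block the counts were 4074 and 4040. They were smaller in a test against a 1.5-fold change (510 and 322), with 2 neighbouring-region covariates (1844 and 2301), in the first cycle only (105 and 77, 6 libraries per age), and, among settings chosen after seeing the data, with 3 covariates (150 and 86), with the 3 deepest old times only (149 and 85) and without the 4 Gm15446 times (1510 and 2163). Omission of single times gave 2482 to 3755 higher and 3350 to 4235 lower, 117 to 201 for aged against young and 6978 to 8976 for old against aged. The share higher among calls was 47.1% in the main fit, 53.8% with length and GC trends removed and 39.5% at equal depth; for old against aged it was 44% and, without the filter, 31.4%, where the median of all tested genes was -0.14. For the difference between tissues 1433 genes were called in the first cycle and 4007 in the second.

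Of 111 named genes, 39 stayed called with the same sign in every alternative run for them. The sign changed for Slc1a2 (0.0657, adjusted p = 0.572), Pdgfra (0.0119, 0.898) and Gria2 (0.17, 0.0108) with length and GC trends removed and for En1 (-0.55, 0.3) with 3 covariates. En1 is itself on the midbrain list whose mean level is a covariate in that fit, so its value there depends partly on itself. The cause of the sign changes was not tested. Of the named genes 65 lost their call in the first cycle, 61 with the 3 deepest times and 62 with 3 covariates. These fits had fewer libraries or residual degrees of freedom. The second cycle, with as many libraries as the first, kept 105 calls. Why calls were lost was not tested. Depth limits low genes: the shallowest old library had 1.83 M counts.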

Other observations

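Long noncoding RNAs retained in the nucleus were lower in old hypothalamus. Of 8 tested, 1 rose and 5 fell, with a median log2 change of -0.54 by edgeR, where 21.4% of all tested genes fell. Kcnq1ot1, the imprinted antisense transcript, was at 21.4 to 69.2 CPM in young and 3.36 to 27.2 CPM in old libraries (-2.28 ± 0.32, edgeR adjusted p = 1.01e-04). Malat1 changed by -0.85 ± 0.20. With length and GC trends removed 2 of the 8 rose and 2 fell, and Malat1 no longer passed (-0.34, adjusted p = 0.177).

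Of 14 immediate early genes, which neurons switch on with activity, 6 fell (42.9%, against 21.4% of all tested genes) and 1 rose (median log2 change -0.23). With length and GC trends removed 5 fell. Of 17 clock genes 2 rose (11.76%) and 3 fell (17.65%), below the 19.1% and 21.4% of all tested genes. Clock was at a median of 96.2 CPM in young and 49.9 CPM in old libraries (-0.88 ± 0.15) and Bhlhe40, a repressor in the loop, at 65.8 and 78.7 CPM (0.32 ± 0.07). Clock no longer passed with length and GC trends removed (-0.10, edgeR adjusted p = 0.293). Of 18 genes of cholesterol synthesis 1 rose (5.56%) and 2 fell (11.1%), also below those shares.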
